A study of Rattus norvegicus with 12 samples.

Results

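Insulin, amylin and the enzymes that mature them were followed here as 8 genes, chosen by symbol from the 34034 rows of the count table. They were Ins1, Ins2, Iapp, Pcsk1, Pcsk2, Cpe, Scg5 and Pam, and all 8 passed the filter on low counts that left 14324 genes. Their RNA was measured by RNA-seq in INS-1E cells, an established wild-type rat insulinoma line used as a β-cell model, grown at 11 mM glucose. The 4 groups held 3 libraries each. Untreated cells received no cytokine, and IL-1βlow cells received IL-1β at 10 pg/ml for 72 h, renewed every 24 h. CYT cells were challenged for 16 h with 100 pg/ml IL-1β and 5 ng/ml IFN-γ, and IL-1βlow + CYT cells received the preconditioning, fresh medium and then that challenge. The study's scheme renews the medium after preconditioning and then challenges cells or not, without giving a separate harvest time for unchallenged cells. All groups come from a single tumour-derived line, and the study asked whether the low dose alters the response to the high one.

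Insulin is made as a precursor that is folded in the endoplasmic reticulum and cut in secretory granules. The convertases PC1/3 (Pcsk1) and PC2 (Pcsk2) cut at pairs of basic residues, carboxypeptidase E (Cpe) trims the residues left behind, and 7B2 (Scg5) is the chaperone that PC2 needs to become active. Amylin, the product of Iapp, is stored with insulin, is matured by the same convertases and carboxypeptidase, and is amidated at its C-terminus by the Pam enzyme. Rats and mice carry a pair of insulin genes, of which Ins1 arose as a retroposed copy of Ins2.

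Expression is given as CPM, the counts of a gene per 1000000 counts of its library after TMM scaling, and group values are means with the SD of their 3 libraries. A gene was called changed when edgeR's quasi-likelihood test gave a Benjamini-Hochberg adjusted p under 0.01 over all genes tested and an absolute log2 fold change above 1, or above 0.6 for IL-1βlow against untreated cells. "Fell", "rose" and "called" below refer to that rule. Library totals ran from 15812640 to 20246806 counts. The line carried the β-cell label in its markers, since 12 of 14 passed the filter, with G6pc2 and Ucn3 each under 1 CPM in every group mean. The α-cell hormone gene Gcg was also present at 265 CPM in untreated cells, while Irx2, Sst, Hhex, Rbp4, Prss1, Cpa1, Cftr, Dcn, Ptprc and Itgam, which mark other islet, exocrine, fibroblast and immune cells, were at or near 0. Summed over 7 α-cell markers, of which 2 passed the filter, the level ran from 197 to 386 CPM in untreated, 169 to 273 in IL-1βlow, 30.0 to 69.7 in CYT and 83.5 to 162 in IL-1βlow + CYT libraries, and its part in the results was not tested. No other list of foreign markers summed to more than 16.4 CPM in any library. In bulk RNA, fewer cells that express a gene and less RNA per cell cannot be told apart.

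The sequences just upstream of the 3 hormone genes are shown because the ratios between these genes changed with the cytokines. They are the 250 bases before the annotated start in RefSeq's assembly GRCr8, written 5′ to 3′ on the gene's strand. Capitals mark TAAT (the core of the A boxes bound by homeodomain factors such as Pdx1), CANNTG (the E box bound by factors such as Neurod1) and TGACG (a CRE-like element) on either strand, and touching or overlapping matches run together. Of the 8 genes, 7 were in the promoter table.
Ins1: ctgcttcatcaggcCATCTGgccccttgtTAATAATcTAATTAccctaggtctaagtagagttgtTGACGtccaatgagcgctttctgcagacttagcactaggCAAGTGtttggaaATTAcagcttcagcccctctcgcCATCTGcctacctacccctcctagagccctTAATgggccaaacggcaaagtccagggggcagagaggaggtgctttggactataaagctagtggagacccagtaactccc
Ins2: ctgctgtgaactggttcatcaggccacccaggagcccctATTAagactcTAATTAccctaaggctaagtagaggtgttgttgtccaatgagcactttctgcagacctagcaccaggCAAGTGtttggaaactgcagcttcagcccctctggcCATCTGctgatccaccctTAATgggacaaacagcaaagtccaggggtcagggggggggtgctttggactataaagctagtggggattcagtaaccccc
Iapp: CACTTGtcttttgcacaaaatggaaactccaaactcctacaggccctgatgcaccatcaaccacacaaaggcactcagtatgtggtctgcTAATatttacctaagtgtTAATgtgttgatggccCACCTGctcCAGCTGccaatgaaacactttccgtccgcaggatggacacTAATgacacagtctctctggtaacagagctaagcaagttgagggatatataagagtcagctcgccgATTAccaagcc
The Ins1 window lies at chr1:261185869-261186118 on the plus strand, that of Ins2 at chr1:207273806-207274055 on the minus strand and that of Iapp at chr4:176967847-176968096 on the plus strand. All 3 windows precede the first exon. The Ins1 and Ins2 windows shared 205 of 262 aligned columns (78.2%), against 46.8% for Ins1 with Iapp and 49.3% for Ins2 with Iapp. Ins1 held 6 TAAT matches and Ins2 and Iapp 4 each, where 10.8% of all 33469 windows held at least 4. CANNTG was present 3 times in Ins1, 2 times in Ins2 and 3 times in Iapp, and 30.8% of all windows held it at least 2 times. TATAAA began at position -30 of both insulin genes and was found in 12.9% of windows. TGACG stood at position -185 of Ins1 and did not match in the Ins2 or Iapp window, and 18.2% of all windows held it. The cytokine-related letters TTCNNNGAA (a GAS-like element, in 7.67% of windows) and GGGANNNNCC (an NF-κB-like element, in 16.4%) matched none of these 3 windows on either strand. These matches describe letters in a short window, and whether any factor binds them was not tested.

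CYT lowered 5 of the 8 genes: Ins1, Ins2, Pcsk1, Pcsk2 and Pam. Over all genes tested, 11.6% were called lower in that comparison and 10.0% higher. All 8 had a negative log2 fold change with an adjusted p under 0.01, a state that 24.5% of all genes shared, and the members' median was -1.45 beside -0.04 over all genes. The remaining 3, Iapp, Cpe and Scg5, missed the fold change minimum.

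**Figure D1:**
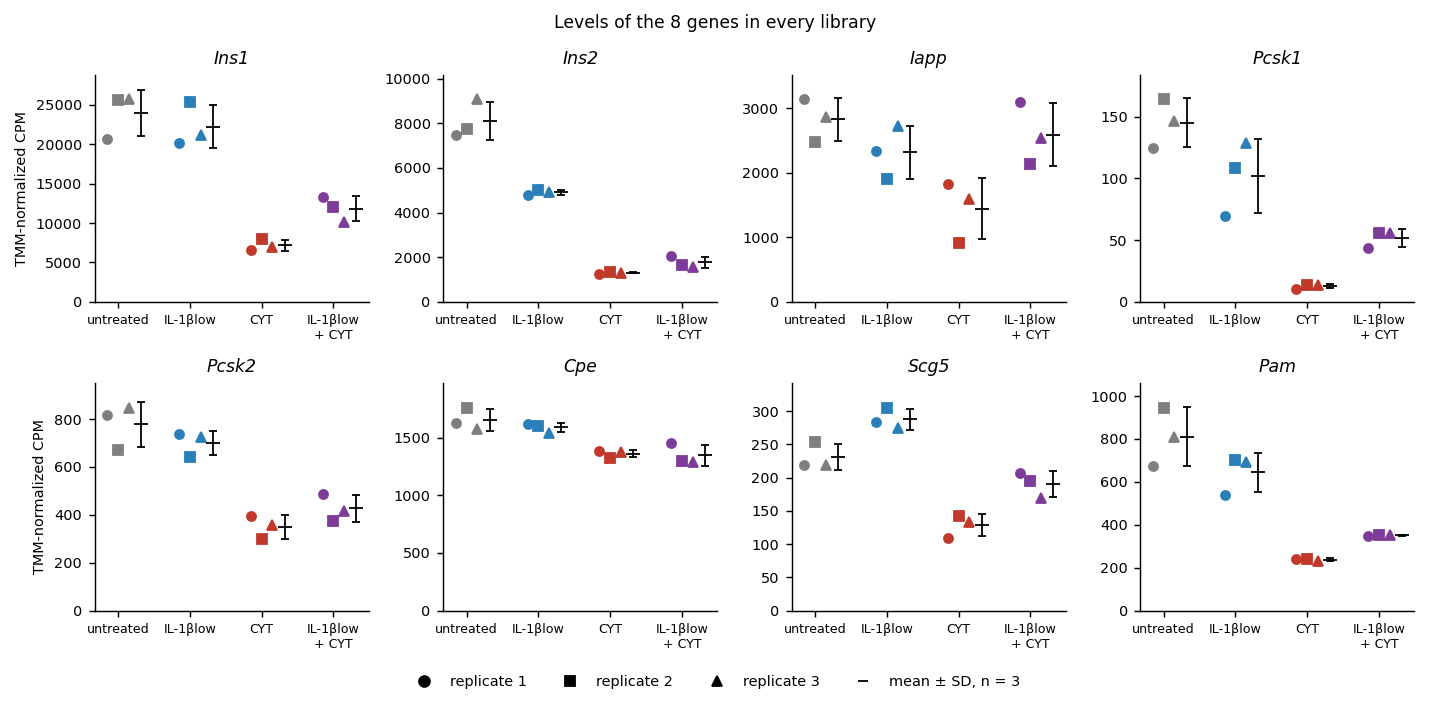
TMM-normalized CPM (vertical axis, linear from 0, a scale for each gene) of the 8 genes in the 4 groups on the horizontal axis, with a marker for each library and the mean ± SD (n = 3) beside them. All 8 genes stood lower in every CYT library than in every untreated library, and how many of all genes did so was not counted. Pcsk1 in IL-1βlow + CYT libraries lay between the CYT and IL-1βlow libraries.

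Of the insulin and amylin genes, Ins2 had the largest fall. In CPM, Ins2 stood at 7465, 7737 and 9089 in untreated libraries 1 to 3, at 4779, 4987 and 4926 in IL-1βlow libraries, at 1269, 1314 and 1302 in CYT libraries and at 2061, 1650.3 and 1582 in IL-1βlow + CYT libraries. No 2 groups overlapped, and the order was untreated, IL-1βlow, IL-1βlow + CYT, CYT. CYT cells held 1295 ± 23.6 CPM against 8097 ± 869.9 in untreated cells, 6.25-fold lower (log2 fold change -2.64 ± 0.12 (SE, n = 3), adjusted p = 2.2e-10). Ins2 was also the single member called in IL-1βlow against untreated cells, where 0.168% of all genes were called lower. It stood at 4897 ± 107 CPM after IL-1βlow, a log2 fold change of -0.73 ± 0.11 (SE, n = 3), adjusted p = 0.0043. That call was lost without any of 5 of the 6 libraries compared: leaving out untreated replicate 2 or 3, or IL-1βlow replicate 1, 2 or 3, gave adjusted p from 0.011 to 0.0291 with the log2 fold change between -0.63 and -0.76.

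Ins1 gave another picture under the low dose. In CPM, Ins1 stood at 20655, 25565 and 25763 in untreated libraries 1 to 3, at 20173, 25344 and 21155 in IL-1βlow libraries, at 6624, 7965 and 7002 in CYT libraries and at 13277, 12070.2 and 10118 in IL-1βlow + CYT libraries. The untreated and IL-1βlow ranges overlapped, and CYT and IL-1βlow + CYT libraries lay below both and apart from each other. IL-1βlow changed Ins1 by a log2 fold change of -0.11 (95% interval -0.40 to 0.18, adjusted p = 0.722), which was not called. With CYT it fell 3.33-fold, from 23994 ± 2894 to 7197 ± 691 CPM (log2 fold change -1.74 ± 0.14 (SE, n = 3), adjusted p = 1.0e-07).

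Amylin followed neither insulin gene closely. In CPM, Iapp stood at 3149, 2483 and 2863 in untreated libraries 1 to 3, at 2333, 1901 and 2721 in IL-1βlow libraries, at 1823, 914 and 1591 in CYT libraries and at 3106, 2141 and 2539 in IL-1βlow + CYT libraries. CYT libraries lay below all others, while untreated, IL-1βlow and IL-1βlow + CYT libraries overlapped. CYT changed Iapp by a log2 fold change of -0.97 ± 0.21 (SE, n = 3), adjusted p = 0.0013, just short of the minimum of 1. Leaving out untreated replicate 2, CYT replicate 1 or CYT replicate 3 carried it past that minimum, at -1.04, -1.14 and -1.02. In IL-1βlow + CYT cells it stood at 2595 ± 485 CPM beside 2832 ± 334 in untreated cells, a log2 fold change of -0.13 with a 95% interval of -0.58 to 0.33 and an adjusted p of 0.715. The share of counts on mitochondrial genes moved with Iapp: it was 4.10%, 3.80% and 3.30% in untreated libraries 1 to 3, 3.17%, 2.24% and 4.25% in IL-1βlow, 2.59%, 1.69% and 2.67% in CYT and 3.33%, 2.81% and 3.92% in IL-1βlow + CYT libraries. In the IL-1βlow, CYT and IL-1βlow + CYT groups, replicate 2 held the lowest value of both. The part of this share in the Iapp result was not tested.

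Pcsk1, which encodes PC1/3, had the largest fold change of the 8 under CYT. In CPM, Pcsk1 stood at 125, 164 and 147 in untreated libraries 1 to 3, at 69.5, 109 and 129 in IL-1βlow libraries, at 10.5, 13.8 and 13.8 in CYT libraries and at 43.4, 55.6 and 56.0 in IL-1βlow + CYT libraries. Untreated and IL-1βlow libraries overlapped, CYT libraries were the lowest, and IL-1βlow + CYT libraries lay between without overlap. CYT cells held 12.7 ± 1.85 CPM against 145 ± 19.8, 11.5-fold lower (log2 fold change -3.52 ± 0.21 (SE, n = 3), adjusted p = 4.4e-09). At this depth the lowest CYT library still carried 194 Pcsk1 counts. Pcsk2, which encodes PC2, fell 2.22-fold, a log2 fold change of -1.15 ± 0.13 (SE, n = 3), adjusted p = 2.4e-06. In CPM, Pcsk2 stood at 817, 670.5 and 848 in untreated libraries 1 to 3, at 737, 642 and 724 in IL-1βlow libraries, at 396, 298 and 356 in CYT libraries and at 489, 376 and 415 in IL-1βlow + CYT libraries. Its values formed a higher pair of groups without CYT and a lower pair with CYT, and the groups within each pair overlapped.

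The PC2 chaperone gene Scg5 had its highest values after IL-1βlow. In CPM, Scg5 stood at 219, 254 and 219.7 in untreated libraries 1 to 3, at 284, 305 and 274 in IL-1βlow libraries, at 109.8, 142 and 133 in CYT libraries and at 207, 195 and 169 in IL-1βlow + CYT libraries. No 2 groups overlapped. The IL-1βlow difference from untreated cells, a log2 fold change of 0.32 with a 95% interval of 0.09 to 0.55, had an adjusted p of 0.193 and was not called. Under CYT the log2 fold change was -0.85 ± 0.11 (SE, n = 3), adjusted p = 9.7e-06.

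Cpe moved least. In CPM, Cpe stood at 1628, 1759 and 1574 in untreated libraries 1 to 3, at 1621, 1601 and 1542 in IL-1βlow libraries, at 1386, 1323 and 1375 in CYT libraries and at 1451, 1298 and 1289 in IL-1βlow + CYT libraries. Libraries with CYT lay below those without it, and untreated overlapped with IL-1βlow as CYT did with IL-1βlow + CYT. The log2 fold change under CYT was -0.28 ± 0.08 (SE, n = 3), adjusted p = 0.0073, or 1.21-fold lower. Pam, the amidating enzyme's gene, fell 3.41-fold (log2 fold change -1.77 ± 0.12 (SE, n = 3), adjusted p = 1.9e-08). In CPM, Pam stood at 672, 946 and 811 in untreated libraries 1 to 3, at 539, 703 and 691 in IL-1βlow libraries, at 242, 239.6 and 230.4 in CYT libraries and at 348, 351 and 354 in IL-1βlow + CYT libraries. Its untreated and IL-1βlow libraries overlapped, and the CYT libraries were the lowest.

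**Figure D2:**
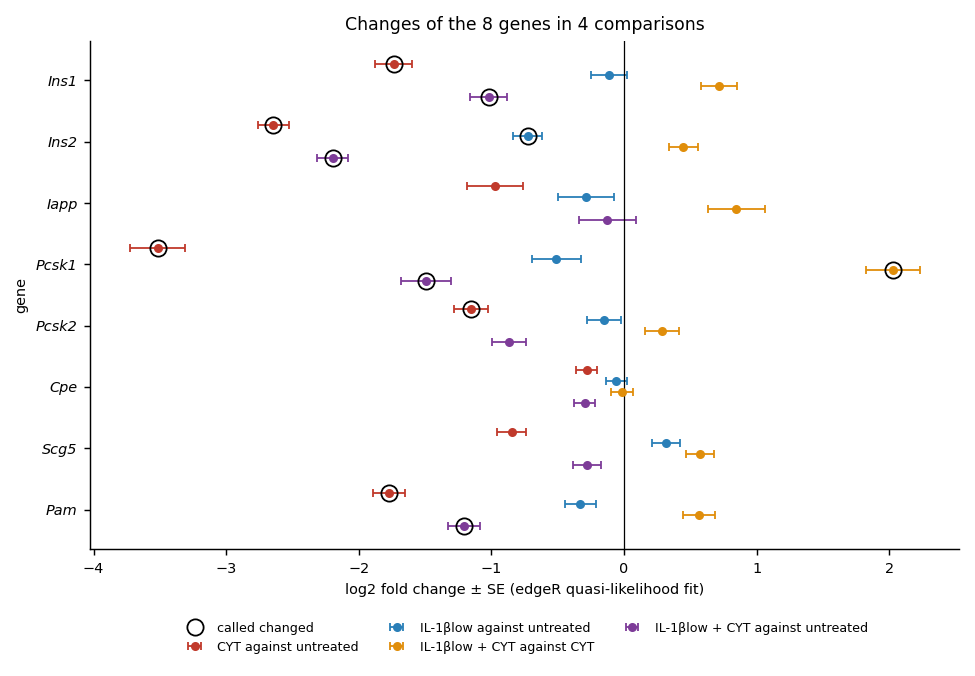
Log2 fold change (horizontal axis) of each gene (vertical axis) in 4 comparisons with the SE of the edgeR fit, with a black ring around values called changed. Pcsk1 spans the widest range, from -3.52 for CYT against untreated to 2.03 for IL-1βlow + CYT against CYT, and all Cpe values lie between -0.30 and -0.02.

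Preconditioning before the challenge left Pcsk1 higher than CYT alone, and it was the single member called in IL-1βlow + CYT against CYT. Over all genes, 6.54% were called higher and 5.92% lower there. Pcsk1 rose from 12.7 ± 1.85 to 51.7 ± 7.15 CPM, 4.07-fold (log2 fold change 2.03 ± 0.20 (SE, n = 3), adjusted p = 2.4e-06). A further 5 members had an adjusted p under 0.01 and a positive log2 fold change below 1, a state including Pcsk1 that 17.1% of all genes shared. These were Iapp at 0.85 ± 0.21 (SE, adjusted p = 0.0045), Ins1 at 0.72 ± 0.14 (adjusted p = 6.2e-04), Scg5 at 0.57 ± 0.11 (adjusted p = 5.3e-04), Pam at 0.57 ± 0.12 (adjusted p = 0.0013) and Ins2 at 0.45 ± 0.11 (adjusted p = 0.0037). Pcsk2 had a log2 fold change of 0.29 (95% interval 0.02 to 0.55, adjusted p = 0.0704, or 0.0025 with libraries paired by replicate number in a block) and Cpe one of -0.02 (95% interval -0.19 to 0.16). Without CYT replicate 1, Iapp also passed the minimum, at 1.02.

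Against untreated cells, IL-1βlow + CYT cells were still called lower for Ins1, Ins2, Pcsk1 and Pam, where 2.14% of all genes were called lower. Ins2 was 4.59-fold lower (log2 fold change -2.20 ± 0.11 (SE, n = 3), adjusted p = 3.7e-09), Pcsk1 2.81-fold (adjusted p = 3.7e-05), Pam 2.31-fold (adjusted p = 3.3e-06) and Ins1 2.03-fold (adjusted p = 6.8e-05). The Ins1 value lay at the minimum: its log2 fold change of -1.02 became -0.99 without untreated replicate 2, -0.97 without untreated replicate 3 and -0.92 without IL-1βlow + CYT replicate 3. Pcsk2 had a log2 fold change of -0.87 (adjusted p = 1.3e-04), Cpe of -0.30 (adjusted p = 0.0151) and Scg5 of -0.28 (adjusted p = 0.0784). As a share of the log2 change under CYT alone, IL-1βlow + CYT cells kept 83.1% for Ins2, 75.2% for Pcsk2, 68.1% for Pam, 58.8% for Ins1 and 42.4% for Pcsk1. For the 3 genes not called under CYT the share was 106% for Cpe, 32.7% for Scg5 and 12.9% for Iapp. These shares are descriptions, since both changes use the same untreated libraries.

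Measured against IL-1βlow cells, the challenge lowered Ins2 alone among the 8, by a log2 fold change of -1.47 ± 0.11 (SE, n = 3), adjusted p = 2.9e-07, where 0.963% of all genes were called lower. Ins1, Pcsk1, Pcsk2, Scg5 and Pam had log2 fold changes of -0.91, -0.98, -0.72, -0.60 and -0.88, each with an adjusted p under 0.01 and below the minimum of 1. The share of all genes in that state was not counted. In either direction, 1855 of 14324 genes had an adjusted p under 0.05 there. Single libraries moved some of these members past the minimum: Pcsk1 reached -1.21 and Pam -1.005 without IL-1βlow replicate 1, Ins1 reached -1.002 without IL-1βlow + CYT replicate 1, and Pcsk1 reached -1.04 and -1.04 without replicates 2 and 3 of that group. Cpe had a log2 fold change of -0.24 (adjusted p = 0.0691) and Iapp one of 0.16 (adjusted p = 0.737).

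Whether the CYT response itself differed after preconditioning was tested by the interaction term. A positive value means that the log2 change with CYT was less negative, or more positive, after preconditioning. This term was called for Pcsk1, Ins2 and Iapp, and 5.48% of all genes were called in that direction. The interaction was 2.54 ± 0.27 for Pcsk1 (SE, adjusted p = 1.5e-05), 1.17 ± 0.15 for Ins2 (adjusted p = 7.4e-05) and 1.14 ± 0.30 for Iapp (adjusted p = 0.0092). The Ins2 groups from which the challenge started differed, with means of 4897 CPM after IL-1βlow and 8097 CPM without it. Pam at 0.90 (adjusted p = 0.001) and Ins1 at 0.83 (adjusted p = 0.0043) brought the members with an adjusted p under 0.01 to 5, beside 10.1% of all genes. Pcsk2, Scg5 and Cpe had interactions of 0.44, 0.25 and 0.04 with adjusted p of 0.0655, 0.205 and 0.795. The Iapp call was lost when any single library was left out among untreated replicates 1, 2 and 3, IL-1βlow replicates 1 and 2, CYT replicates 2 and 3 and IL-1βlow + CYT replicate 1, at values from 0.89 to 1.19 and adjusted p from 0.0111 to 0.0292.

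Ratios between genes of a library do not depend on library scaling, while a percent of a library's counts depends on its total. Compared with and without each treatment were ratios of Ins1 to Ins2, of Iapp to both insulin genes and of Pcsk1 to Pcsk2. The percent of counts on Ins1 plus Ins2 was added, making 4 quantities. Each was tested by a two-sided exact permutation of libraries within the other treatment, for which the smallest p is 0.005, and the 8 p-values were adjusted by Benjamini-Hochberg. The level of a count ratio depends on gene length and on how reads of the near-identical Ins1 and Ins2 transcripts were assigned, so the ratios are compared between groups only. Neither the strand setting nor the treatment of reads with several matches is given in the sources used here.

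The balance between the insulin genes shifted under either treatment. Ins1 counts per Ins2 count were 2.77, 3.30 and 2.83 in untreated libraries 1 to 3, 4.22, 5.08 and 4.29 in IL-1βlow, 5.22, 6.06 and 5.38 in CYT and 6.44, 7.31 and 6.39 in IL-1βlow + CYT libraries. The 4 groups did not overlap and rose in that order. On the log2 scale CYT raised the ratio by 0.74 (exact permutation p = 0.005, adjusted p = 0.0133), by 0.91 without and 0.57 with preconditioning. IL-1βlow raised it by 0.44 (exact permutation p = 0.005, adjusted p = 0.0133), by 0.61 without and 0.27 with the challenge. Together the insulin genes took 3.22 ± 0.440% of a library's counts in untreated cells (SD, n = 3), 2.74 ± 0.229% after IL-1βlow, 0.838 ± 0.0565% after CYT and 1.35 ± 0.167% after both. CYT lowered that share by 1.88 percentage points (exact permutation p = 0.005, adjusted p = 0.0133), and the difference with IL-1βlow was 0.017 points (exact permutation p = 0.935, adjusted p = 0.935), the mean of -0.48 without and 0.51 with the challenge.

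Amylin rose relative to insulin under CYT. Iapp counts per 100 insulin counts were 11.2, 7.46 and 8.22 in untreated, 9.35, 6.27 and 10.4 in IL-1βlow, 23.1, 9.85 and 19.2 in CYT and 20.3, 15.6 and 21.7 in IL-1βlow + CYT libraries. CYT libraries 1 and 3 and every IL-1βlow + CYT library lay above all libraries without CYT, while CYT library 2 lay among them. The log2 ratio was 1.03 higher with CYT (exact permutation p = 0.01, adjusted p = 0.02) and 0.08 higher with IL-1βlow (exact permutation p = 0.755, adjusted p = 0.863).

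The convertase balance moved with the challenge as well. Pcsk1 counts per 100 Pcsk2 counts were 15.3, 24.5 and 17.3 in untreated, 9.43, 16.9 and 17.8 in IL-1βlow, 2.66, 4.61 and 3.87 in CYT and 8.88, 14.8 and 13.5 in IL-1βlow + CYT libraries. CYT libraries were the lowest, and the other 3 groups overlapped in part. The log2 ratio was lower with CYT by a mean difference of -1.29 (exact permutation p = 0.025, adjusted p = 0.04), made up of -2.36 in cells without and -0.22 in cells with preconditioning. Leaving out IL-1βlow replicate 2 or 3 gave an adjusted p of 0.072 and leaving out IL-1βlow + CYT replicate 1 one of 0.08, with differences from -1.23 to -1.18. For IL-1βlow the mean difference was 0.67 (exact permutation p = 0.13, adjusted p = 0.173), with -0.40 in unchallenged and 1.74 in challenged cells.

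**Figure D3:**
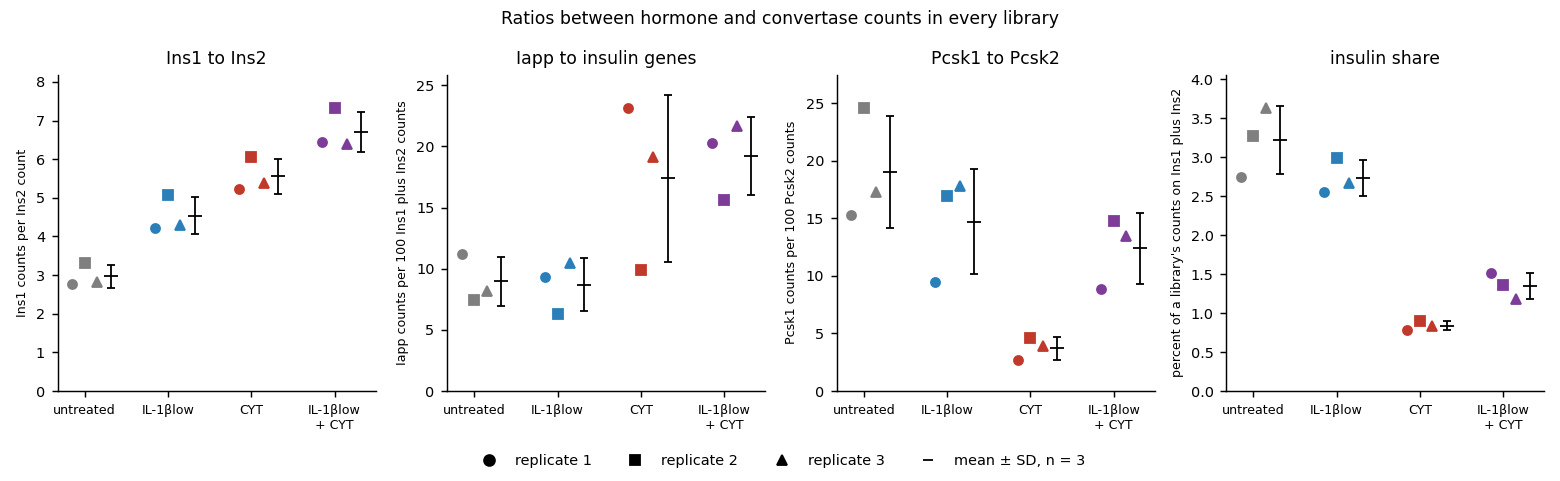
Ins1 counts per Ins2 count, Iapp counts per 100 insulin counts, Pcsk1 counts per 100 Pcsk2 counts and the percent of a library's counts on Ins1 plus Ins2 (vertical axes, linear from 0) in the 4 groups, with a marker for each library and the mean ± SD (n = 3). The Ins1 to Ins2 ratio stepped up from 2.97 ± 0.293 in untreated to 6.72 ± 0.518 in IL-1βlow + CYT libraries without overlap between groups, and the Pcsk1 to Pcsk2 ratio was lowest in CYT libraries at 3.71 ± 0.985.

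Other genes that act on these precursors were read from 6 lists, whose counts stand beside the 11.6% of all genes called lower and 10.0% called higher with CYT. Among the other convertases, of which 7 of 8 were tested, 1 fell with CYT: Pcsk1n, whose product proSAAS inhibits PC1/3. It went from 439.7 ± 29.8 to 183 ± 27.8 CPM, a log2 fold change of -1.27 ± 0.14 (adjusted p = 2.9e-06) by edgeR's quasi-likelihood test. In IL-1βlow + CYT against CYT it rose by 1.45 ± 0.14 (adjusted p = 1.9e-06), and Pcsk5, named after its value was seen, fell with a log2 fold change of -1.39 ± 0.22 (adjusted p = 1.4e-04). Of 12 other carboxypeptidases and genes of copper and ascorbate supply to Pam, 9 were tested and 1, Cpz, was called higher with CYT, at 1.27 ± 0.280 CPM beside 0.355 ± 0.0105. With 1 call each, both lists were near the share of all genes. The lists' median log2 fold changes under CYT were -0.45 and -0.19, beside -0.04 over all genes.

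Among other islet prohormones and granins, 13 of 19 were tested, and with CYT 3 were called higher and 4 lower. The 3 that rose, Calcb, Adm and Calca, encode β-CGRP, adrenomedullin and calcitonin with α-CGRP, peptides of the family to which amylin belongs. Calcb had at most 1 count in any untreated library and from 303 to 517 counts in CYT libraries, where its mean was 21.3 ± 4.99 CPM (adjusted p = 9.2e-10, edgeR). Adm went from at most 3 counts to between 221 and 379 (adjusted p = 1.3e-07), and Calca from between 1 and 8 counts to between 18 and 52 (adjusted p = 3.1e-04). All 3 were lower again in IL-1βlow + CYT than in CYT cells, with log2 fold changes of -2.34 ± 0.24 (adjusted p = 2.9e-06) for Calcb, -3.42 ± 0.40 (adjusted p = 9.0e-06) for Adm and -2.26 ± 0.50 (adjusted p = 0.0017) for Calca. Iapp itself had log2 fold changes of -0.97 and 0.85 in these comparisons. Gcg, the proglucagon gene, fell under CYT by 2.83 ± 0.39 (adjusted p = 2.2e-05) on the log2 scale and was called higher in IL-1βlow + CYT than in CYT cells, by 1.44 ± 0.38 (adjusted p = 0.0058).

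Of 12 transcription factors of the insulin genes, which include the repressor Insm1, all were tested, 6 fell with CYT and 4 rose in IL-1βlow + CYT against CYT, and the list's median was -0.97 and 0.71 in these comparisons. The largest falls were in the homeodomain genes Isl1, at -2.32 ± 0.16 (adjusted p = 2.4e-08), Nkx2-2, at -2.01 ± 0.11 (adjusted p = 1.9e-09), and Nkx6-1, at -1.75 ± 0.20 (adjusted p = 3.2e-06), and in Mafa, the factor of the insulin C1 element, at -1.56 ± 0.11 (adjusted p = 2.4e-08). In IL-1βlow + CYT against CYT the log2 fold changes were 1.90 ± 0.16 (adjusted p = 5.6e-07) for Isl1, 1.42 ± 0.11 (adjusted p = 2.3e-07) for Nkx2-2, 0.65 ± 0.20 (adjusted p = 0.0146) for Nkx6-1 and 0.81 ± 0.11 (adjusted p = 3.0e-05) for Mafa, of which the first 2 were called. The other 2 called there, named after their values were seen, were Pdx1 at 1.35 ± 0.15 (adjusted p = 6.6e-06) and Rfx6 at 1.42 ± 0.13 (adjusted p = 9.0e-07). Under IL-1βlow alone, where Ins2 fell, edgeR called 0 of the 12, with 3 at an unadjusted p under 0.05, and DESeq2 and exactTest called 0.

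Of 31 genes for entry of preproinsulin into the endoplasmic reticulum, signal peptide removal and folding, 30 were tested. Their median log2 fold change with CYT was -0.48, beside -0.04 over all genes. By edgeR, 22 were lower and 3 higher at an unadjusted p under 0.05, a state not counted over all genes. Uncalled genes such as Pdia6 (-0.94, adjusted p = 3.6e-06) and P4hb (0.62, adjusted p = 2.1e-04) missed only the fold change minimum. By the call rule 3 of the 30 fell, a share near the 11.6% of all genes. They were Spcs3, a signal peptidase subunit, at -1.19 ± 0.24 (adjusted p = 6.3e-04), Hsp90b1, the chaperone GRP94, at -1.16 ± 0.13 (adjusted p = 2.6e-06), and Sec61b, a translocon subunit, at -1.06 ± 0.11 (adjusted p = 2.0e-06). In IL-1βlow + CYT against CYT their log2 fold changes were 0.33 ± 0.24 (adjusted p = 0.271), 0.21 ± 0.13 (adjusted p = 0.187) and 0.58 ± 0.11 (adjusted p = 7.0e-04). There edgeR called 0 of the 30, with 12 at an unadjusted p under 0.05 (9 higher, 3 lower), and DESeq2 and exactTest called 0. Adjusted p in edgeR went as low as 2.1e-04, for Srp14 at 0.77, so the fold change minimum kept such genes uncalled. Of 14 genes for granule zinc, acidification and insulin degradation, edgeR, DESeq2 and exactTest each called 0 with CYT, and 9 had an unadjusted p under 0.05 (6 higher, 3 lower). In edgeR these 9 had adjusted p from 1.3e-05 (Ctsl) to 0.0023 (Ide) and missed only the fold change minimum. Over all genes, 8926 of 14324 had an adjusted p under 0.05 in that comparison. The list's median log2 fold change was 0.15. In IL-1βlow + CYT against CYT 1 of the 14 was called higher, Slc30a8, the granule zinc transporter, named after its value was seen, at 1.08 ± 0.14 (adjusted p = 2.2e-05).

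**Figure D4:**
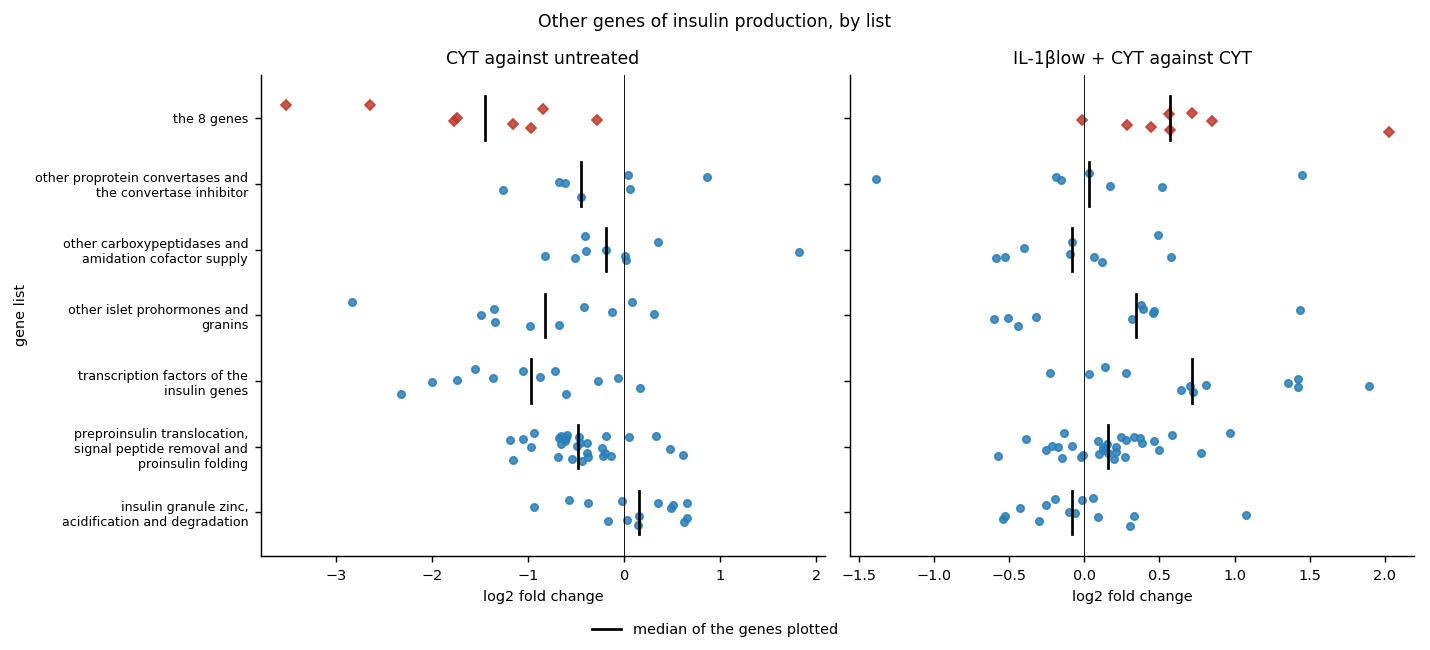
Log2 fold change (horizontal axis) of the 8 genes and of the tested genes of 6 lists (rows) for CYT against untreated (left) and IL-1βlow + CYT against CYT (right), with a bar at the median of the genes plotted. Calcb, Adm and Calca are left out because their untreated counts were near 0. The 8 genes had medians of -1.45 and 0.57, and the transcription factors of the insulin genes -0.97 and 0.71.

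Across the 12 libraries, the log2 CPM of the 8 genes correlated pairwise with Pearson's r from 0.468 to 0.975 over 28 pairs, all libraries of the 4 groups being pooled, so that differences between groups are part of each value. The lowest r was between Iapp and Cpe and the highest between Ins1 and Pam. Of 5906 genes with a mean log2 CPM above 5, those most like each member in this measure were Vps39, Nucb2 and Chga for Ins1 and Itpkb, Elapor1 and Wnt4 for Ins2, with r of 0.984 to 0.994. Iapp was most like ND5 (r = 0.949), Pcdhb17 (r = 0.932) and Arpc5 (r = 0.931), and ND5 is a mitochondrially encoded subunit of complex I. Pde4d, Tent5a and Stc1 were nearest to Pcsk1, Enpp2, Insm1 and Peg3 to Pcsk2, Ssbp2, Wipi1 and Polr3a to Cpe, Rgs16, Slco3a1 and Gnas to Scg5, and Txndc11, St3gal1 and Tent5a to Pam, with r of 0.927 to 0.991. Of these, Chga encodes chromogranin A of the secretory granule and Insm1 is a member of the list of insulin gene transcription factors.

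Some of the 8 genes overlap another annotated gene in GRCr8 when whole gene spans are compared. Overlap of exons was not examined, and the counts were made on mRatBN7.2. Where exons overlap, reads without strand cannot be assigned with certainty, and the effect on these counts was not tested. The overlapping genes were Slco1a5 for Iapp, the pseudogene Wbp4-ps1 for Pcsk2, LOC120094586 for Pam and the long non-coding RNAs LOC108349673 for Ins2 and LOC134482492 for Cpe. Ins1, Pcsk1 and Scg5 had no overlapping gene there.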

How the data were processed

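Poly(A) RNA of 12 INS-1E libraries was sequenced from TruSeq libraries. After a FastQC check and rfastp trimming, the authors used Rsubread for alignment to mRatBN7.2 and featureCounts for counting per gene, in R 4.3.3 per the submitters' processing notes. The deposited table gives raw counts by gene symbol as whole numbers, without normalization, and 0 columns were left unused. Strand and multi-mapping settings are not given in the sources used here. The ribosomal gene Rn45s took 6.89% to 10.3% of counts in untreated and 8.33% to 9.85% in IL-1βlow libraries. It took 7.87% to 9.36% in CYT and 9.96% to 11.1% in IL-1βlow + CYT libraries. The part of Rn45s in the percent of counts on the insulin genes was not tested.

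A gene was kept if its CPM exceeded 1 in 2 or more libraries (14324 of 34034 genes). All 12 libraries entered a single fit of edgeR 4.0.16's quasi-likelihood model (R 4.3.3, limma 3.58.1, TMM factors, 8 residual degrees of freedom), with Benjamini-Hochberg adjustment over all genes tested. The study used edgeR's exactTest, kept as an alternative together with DESeq2 1.42.0, RLE factors, TMM without Ins1, Ins2 and the ribosomal gene Rn45s, other filters and thresholds, a replicate block and leaving out each library. Log2 CPM used a prior count of 2. Scripts were tested on simulated data. Counting error is small at this depth, reads are not independent molecules, and no 2 libraries of a group agreed within sampling noise. With 3 libraries in each of 2 groups, the smallest exact two-sided p is 0.1. The labels call the libraries biological replicates.

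Labels number replicates 1 to 3 in each group without naming a shared batch. Deviations from the group means of same-numbered libraries correlated above 0.1 in every pair among IL-1βlow, CYT and IL-1βlow + CYT (9 of 9). With an untreated library they did so in 4 of 9 pairs and ran from -0.19 to 0.18. Over all genes the numbers thus linked the former 3 groups only. Some ratios of the members had the same extreme replicate in all 4 groups. The main tests used no pairing. The replicate block and the paired ratio tests, given as alternatives, pair all 4 groups by number.

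The members, the 6 lists (96 genes), the markers and the ratios were chosen with earlier results of these data known. Named genes are the 8 members, up to 4 called genes of each list with the largest change under CYT, and the 3 genes most correlated with each member. Promoters are from RefSeq's GRCr8 table. Protein and transcript lengths were not used here.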

Additional observations from a re-analysis of the deposited data

Results flagged for a closer look

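The response to CYT differed between cells with and without IL-1βlow by the interaction term of edgeR's quasi-likelihood test (Benjamini-Hochberg over all genes) for 5 of the 8 genes at an adjusted p under 0.01, beside 10.1% of all genes in that direction. The log2 values were 2.54 for Pcsk1 (adjusted p = 1.5e-05), 1.17 for Ins2 (adjusted p = 7.4e-05), 1.14 for Iapp (adjusted p = 0.0092), 0.90 for Pam (adjusted p = 0.001) and 0.83 for Ins1 (adjusted p = 0.0043). In the 3 sets of same-numbered libraries, the interaction was positive throughout for these genes and for Pcsk2 and Scg5. Each set includes an untreated library, for which the numbers did not show a pairing over all genes. The Scg5 value was 0.026 in set 3, and the adjusted p was 0.0655 for Pcsk2 and 0.205 for Scg5. How many of all genes were positive in every set was not counted. Ins1 and Pam stayed under the fold change minimum of 1. Groups of 3 libraries are too small for a test of single outlying libraries.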

How the results depend on the processing

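Calls by edgeR's quasi-likelihood test stayed on their side of the threshold in most settings. A call rule of adjusted p under 0.05 and no minimum fold change raised the members called from 5 to 8 for CYT against untreated, from 1 to 6 for IL-1βlow + CYT against CYT, from 1 to 6 for IL-1βlow + CYT against IL-1βlow, from 4 to 6 for IL-1βlow + CYT against untreated and from 3 to 5 for the interaction. It called 8926, 193, 7267, 3124, 1855 and 5337 genes in the 6 comparisons in the order of the report's design (CYT, IL-1βlow and IL-1βlow + CYT against CYT, against untreated and against IL-1βlow, then the interaction), where 3096, 62, 1785, 858, 556 and 1530 were called otherwise. For IL-1βlow against untreated, 221 genes were called without a filter on low counts, 139 by DESeq2, 138 by exactTest and 141 with the replicate block. Requiring 10 counts in every library gave 2 members for IL-1βlow + CYT against IL-1βlow, since Pcsk1 reached -1.002, and took the Iapp interaction to an adjusted p of 0.0108. Without a filter Ins1 had -0.98 for IL-1βlow + CYT against untreated. TMM without Ins1, Ins2 and Rn45s, RLE factors, DESeq2, exactTest and fits of only the 2 groups compared changed no call of a member.

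Pairing libraries by replicate number in a block brought Iapp to a called -1.02 for CYT against untreated (adjusted p = 2.9e-06) and changed no other call of a member. It also took members with a fold change under the minimum below an adjusted p of 0.01: Pcsk2 in IL-1βlow + CYT against CYT (0.0025) and in the interaction (0.0022), Cpe in IL-1βlow + CYT against untreated (0.0039) and Pcsk1 in IL-1βlow against untreated (0.0047). For the ratios, the mean difference within same-numbered pairs equals that between groups by arithmetic, with CYT 0.74 for Ins1 to Ins2, 1.03 for Iapp to insulin, -1.29 for Pcsk1 to Pcsk2 and -1.88 for the insulin share, and 0.44 for Ins1 to Ins2 with IL-1βlow. These 5 of the 8 tests reached the smallest exact sign-flip p that 6 pairs allow, which adjusted to 0.05 over the 8.

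Leaving out a library gave 16 to 88 genes and 0 to 1 members for IL-1βlow against untreated, 1 to 2 members for IL-1βlow + CYT against CYT and 1 to 3 against IL-1βlow. The ratio of Pcsk1 to Pcsk2 with CYT ran from -1.44 to -1.18, that of Iapp to insulin with IL-1βlow from -0.10 to 0.21 and the insulin share with IL-1βlow from -0.099 to 0.119. The latter 2 changed sign, at -0.10 without CYT replicate 2 for the former and at -0.099, -0.047 and -0.023 without untreated replicate 1, IL-1βlow replicate 2 and IL-1βlow + CYT replicate 1 for the share. Cpe, which was not called, changed sign in the interaction (-0.0076 without a filter, -0.040 without untreated replicate 2, -0.015 without IL-1βlow + CYT replicate 1) and in IL-1βlow + CYT against CYT (0.0094 and 0.014 without IL-1βlow + CYT replicates 2 and 3). Over all libraries left out, the 2 Cpe values ran from -0.040 to 0.077 and from -0.073 to 0.014. The causes were not tested.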

Other observations

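Within each of the 4 groups, the same replicate number held the extreme of several ratios. Replicate 2 had the highest Ins1 to Ins2 ratio and the lowest Iapp to insulin ratio in all 4 groups, and replicate 1 had the lowest Pcsk1 to Pcsk2 ratio in all 4. In untreated libraries, for example, Ins1 counts per Ins2 count were 2.77, 3.30 and 2.83 for replicates 1 to 3. The labels do not say what libraries with the same number share.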
